A study of Mus musculus with 12 samples.

Results

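The genes described here are 44 members of the NRF2 response and of the glutathione and thioredoxin systems: the regulators Nfe2l2 (encoding NRF2) and Keap1, 5 genes of glutathione synthesis and cystine uptake, 9 of the thioredoxin, peroxiredoxin and glutaredoxin group, 14 glutathione S-transferases, 5 genes of NADPH supply and 9 genes of haem, quinone and carbonyl handling and export. They were chosen by name, with 1 probe per gene, the one with the brightest mean signal among the probes detected. Of the 44, 40 had a probe named for them and 36 were detected well enough to be measured, among 12153 genes measured in all. No probe was named for Gsr, Prdx5, Prdx6 or G6pdx, and the probes of Gstm3, Pgd, Abcc1 and Ugdh were not detected in either organ.

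Expression was measured on 12 Illumina MouseWG-6 v2.0 bead arrays, 3 for each of 4 groups. Pups of the C57BL/6 strain (C57Bl/6 J in the methods), with no transgene or mutation named, were kept in room air (normoxia, FiO2 21%) or in high oxygen (hyperoxia, FiO2 85%) from postnatal day 3 until postnatal day 14, when, at an age of 14 days, a piece of lung and a piece of terminal ileum were taken. Each organ therefore has a normoxia and a hyperoxia group of 3 arrays, and the exposure is a model of bronchopulmonary dysplasia, the chronic lung disease of preterm infants. Per the methods, pups of pooled litters were divided between dams, a whole pooled litter went to each exposure and the dams changed places daily, so litter and exposure cannot be told apart. The sources do not say whether the 3 arrays of a group came from separate litters or animals, so every p-value here speaks to the spread among these arrays alone, which may be technical. For 6 of the 12 arrays another label names the other organ. The organ was taken from the tissue characteristic, and 10 lung marker genes averaged 12.8 to 13.1 on the log2 scale on the lung arrays against 4.92 to 5.13 on the ileum arrays, while 8 ileum marker genes averaged 11.3 to 12.2 on the ileum arrays against 5.13 to 5.34 on the lung arrays.

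All levels below are log2 signals after background correction and quantile normalization, and a difference of 1 is a doubling. A probe counts as detected on an array where its detection p is under 0.05, a gene was tested in an organ if its probe was detected on at least 3 of its 6 arrays, and a difference is called where limma's p, adjusted over all genes tested by the Benjamini-Hochberg method, is under 0.05. Between 42.6% and 46.0% of probes were detected on each array. The signal stood 15.1 to 16.3 times over background on the normoxia lung arrays, 14.3 to 18.3 on the hyperoxia lung arrays and 15.1 to 15.5 on the normoxia ileum arrays, but 11.2 to 12.9 on the hyperoxia ileum arrays. Hyperoxia ileum replicate 3 stood apart, with correlations of 0.972 and 0.976 to the other arrays of its group, where replicates of the other groups reached 0.984 to 0.992.

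NRF2 is the transcription factor that cells use to meet oxidants and electrophiles. In resting cells KEAP1 holds it for degradation. Oxidants modify cysteines of KEAP1, NRF2 then accumulates, pairs with small MAF proteins and binds antioxidant response elements near genes that make glutathione, reduce thioredoxin and peroxiredoxins, supply NADPH and conjugate or reduce reactive compounds. In mice, the lung's resistance to high oxygen is known to depend on Nfe2l2.

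The core of the antioxidant response element is written TGACNNNGC, and it was searched on both strands of RefSeq promoter windows (build GRCm38.p6) of 300 bases, 250 before and 50 after an annotated start. Of 32851 windows of all genes, 4071 held it (12.4%). Among the members, 38 had at least 1 window, and 12 of their 46 windows (26.1%), belonging to 12 genes, held 13 matches. The sites below are those of members whose RNA was called higher under hyperoxia in either organ, each printed 5′ to 3′ on the strand that carries the core, with the core in capitals and 10 flanking bases on each side.
Srxn1: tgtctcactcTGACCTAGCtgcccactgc
Txnrd1: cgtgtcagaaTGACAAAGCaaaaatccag
Me1: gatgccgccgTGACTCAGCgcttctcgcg
Gsta3: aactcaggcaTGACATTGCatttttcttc
Gclm: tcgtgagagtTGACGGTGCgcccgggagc
Mgst1: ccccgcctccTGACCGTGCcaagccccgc
In the same order these lie at chr2:152105542-152105570 (minus strand), chr10:82859104-82859132 (minus), chr9:86695902-86695930 (minus), chr1:21240454-21240482 (plus), chr3:122245413-122245441 (minus) and chr6:138140461-138140489 (minus). The first base of the core was 37 bases into the transcript for Srxn1, and 84, 6, 121, 126 and 48 bases before the start for Txnrd1, Me1, Gsta3, Gclm and Mgst1. Of the 13 matches 2, in Me1 and Prdx1, also hold TGANTCA, the AP-1 motif, within the core. Anywhere in their 300 bases, 7.81% of all windows hold that motif, so these figures are not a like comparison. Only the pattern TGACNNNGC was searched for the element, so the sites marked and the windows without a match depend on that spelling. A match of letters is not a binding site that was measured here. The windows of Slc7a11, Osgin1, Ephx1, Taldo1, Gsta1 and Gsta2, also called higher in an organ, held no match, and Hmox1 had no window in the table.

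The 250 bases before the start are shown for Txnrd1, called higher in the lung, and Gsta3, called higher in the ileum, with the core in capitals as it reads on the gene's strand. For Txnrd1 the core lies on the opposite strand, so its reverse complement is in capitals. Txnrd1 has 3 windows, and the one shown, the only one of the 3 with a match, is at chr10:82858956-82859205. Gsta3 lies at chr1:21240335-21240584, and both are on the plus strand.
Txnrd1: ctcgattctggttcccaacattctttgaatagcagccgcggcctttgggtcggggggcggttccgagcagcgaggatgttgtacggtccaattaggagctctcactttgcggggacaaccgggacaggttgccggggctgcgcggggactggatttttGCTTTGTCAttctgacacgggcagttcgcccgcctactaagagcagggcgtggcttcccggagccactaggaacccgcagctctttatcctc
Gsta3: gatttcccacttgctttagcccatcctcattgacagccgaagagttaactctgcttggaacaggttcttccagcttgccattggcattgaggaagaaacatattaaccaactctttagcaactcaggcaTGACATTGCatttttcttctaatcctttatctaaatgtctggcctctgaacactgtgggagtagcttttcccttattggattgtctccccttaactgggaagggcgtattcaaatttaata

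In the lung, Slc7a11 (cystine import), Hmox1 (haem breakdown), Srxn1 (repair of peroxiredoxins), Me1 (an NADPH-making enzyme), Txnrd1, Ephx1, Osgin1 and Taldo1 rose under hyperoxia, while none of the glutathione S-transferases passed the limma test upward (0 also at an unadjusted p under 0.05). Of 36 members tested, 9 were called (25.0%), 8 higher and 1 lower, against 20.3% of all 11193 genes tested (9.86% higher and 10.5% lower). The members' median difference was 0.39, that of all genes 0.02. By size, 6 members were called at 2-fold or more, all of them higher, beside 8.84% of all genes. The count of members called varied from 7 to 16 as single arrays were left out. The 16 came without hyperoxia ileum replicate 3, whose spread enters the common error of the fit, and 27.3% of all genes were then called.

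Neither regulator passed the limma test in the lung, adjusted or not. Nfe2l2 read 8.04, 7.53 and 7.60 on the normoxia lung arrays and 8.31, 8.27 and 7.72 on the hyperoxia lung arrays, so the groups overlapped (difference 0.38, SE 0.22, adjusted p = 0.249). Keap1 read 9.63, 9.66 and 9.46 against 9.58, 9.22 and 9.54 (difference -0.14, SE 0.20, adjusted p = 0.667).

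Slc7a11 encodes the light chain of the cystine/glutamate antiporter, which brings in the cysteine precursor of glutathione, and it had the largest difference of any member. It read 5.26, 4.96 and 5.13 on the normoxia lung arrays, where 1 of 3 was detected, and 8.89, 8.77 and 8.79 on the hyperoxia lung arrays, all detected. The groups were far apart, and the fitted difference was 3.70 (SE 0.17), a 13.0-fold rise (adjusted p = 1.08e-08). The size of that rise is not exact, because the normoxia level lay near background. A second, dimmer Slc7a11 probe rose by 1.57. Slc3a2, the antiporter's heavy chain and no member of the set, rose by 0.92 (SE 0.27, adjusted p = 0.0287). It too lay near background in normoxia lung, with a mean of 5.63 and 2 of 3 arrays detected.

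The enzymes that build glutathione from that cysteine did not pass the test in the lung. Gclc, the catalytic subunit of glutamate-cysteine ligase, read 5.91, 5.32 and 5.67 against 6.54, 6.24 and 6.73 under hyperoxia. Those groups did not overlap, but the difference of 0.87 (SE 0.33) had an adjusted p of 0.0766. Gclm, the modifier subunit, differed by 0.40 (SE 0.18, adjusted p = 0.152) and Gss, glutathione synthetase, by 0.39 (SE 0.20, adjusted p = 0.201).

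Srxn1 encodes sulfiredoxin, which reduces overoxidized peroxiredoxins. It read 7.59, 7.31 and 7.48 on the normoxia lung arrays and 9.91, 9.88 and 9.85 on the hyperoxia lung arrays. The hyperoxia values lay close together and all above the normoxia values, and the rise was 2.42 (SE 0.15, 5.36-fold, adjusted p = 1.82e-07). All 3 of its probes rose, by 1.76 to 2.42. Txnrd1, the cytosolic thioredoxin reductase, whose upstream window is printed above, read 5.20, 5.26 and 5.29 (2 of 3 detected) and then 6.37, 6.55 and 6.32, a rise of 1.16 (SE 0.32, adjusted p = 0.0182). That call was lost without normoxia lung replicate 1 or 2 or hyperoxia lung replicate 2 (adjusted p = 0.0519 to 0.0621).

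The substrates and partners of these enzymes had smaller differences in one direction, none of which passed. Prdx1, Prdx3, Glrx and Txn1 differed by 0.47, 0.49, 0.43 and 0.50, with adjusted p-values of 0.0708, 0.0614, 0.0701 and 0.102, and in each of the 4 the hyperoxia lung arrays lay above the normoxia lung arrays. Across all genes tested in the lung, 43.4% had groups that did not overlap, as did 19 of the 36 members. Without hyperoxia ileum replicate 3, Prdx1, Prdx3, Glrx and Txn1 were all called. Calls then rose across all genes as well, from 20.3% to 27.3% of those tested in the lung. Prdx2, abundant in red cells, differed by 0.03 (adjusted p = 0.94).

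Among the genes of NADPH supply, Me1 and Taldo1 rose in the lung. Me1, cytosolic malic enzyme, read 8.74, 8.53 and 8.49 against 9.90, 9.96 and 9.93 (difference 1.34, SE 0.18, adjusted p = 0.000159). Taldo1, transaldolase of the pentose phosphate pathway, read 11.95, 11.77 and 11.90 against 12.57, 12.28 and 12.62. Its rise of 0.61 (SE 0.18, adjusted p = 0.0286) lost its call without any 1 of 5 lung arrays (all but hyperoxia lung replicate 2, adjusted p = 0.0615 to 0.102). Tkt, transketolase, differed by 0.08 (adjusted p = 0.834).

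Hmox1 encodes haem oxygenase 1, which opens haem to biliverdin, carbon monoxide and iron. It read 7.61, 7.67 and 7.58 on the normoxia lung arrays and 10.27, 9.87 and 10.26 on the hyperoxia lung arrays, a rise of 2.51 (SE 0.32, 5.72-fold, adjusted p = 8.07e-05). Macrophages are a known source of Hmox1, and 8 of 10 macrophage and monocyte markers tested also rose in the lung, with a mean level of 8.39 to 8.59 under normoxia and 9.23 to 9.73 under hyperoxia. Their part in the Hmox1 result was not tested. In whole tissue, more cells of a type and more RNA per cell cannot be told apart.

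Ephx1 and Osgin1 rose as well, and other genes of this role did not pass. Ephx1, microsomal epoxide hydrolase, read 10.55, 10.63 and 10.75 and then 11.94, 11.89 and 11.35 (rise 1.08, SE 0.17, adjusted p = 0.00049). Osgin1, oxidative stress induced growth inhibitor 1, read 6.66, 6.59 and 6.78 and then 7.69, 7.18 and 7.75 (rise 0.86, SE 0.18, adjusted p = 0.00326). Nqo1, the quinone reductase that often serves as a readout of NRF2, read 6.04, 6.01 and 5.96 against 7.31, 6.60 and 6.16. Its hyperoxia arrays were all higher but spread over more than 1 log2 unit, and the difference of 0.69 (SE 0.32) had an adjusted p of 0.148. The carbonyl reductases Cbr1 and Cbr3 differed by 0.10 and 0.41 and Blvrb, biliverdin reductase B, by 0.06, with adjusted p-values of 0.772, 0.218 and 0.911.

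**Figure D1:**
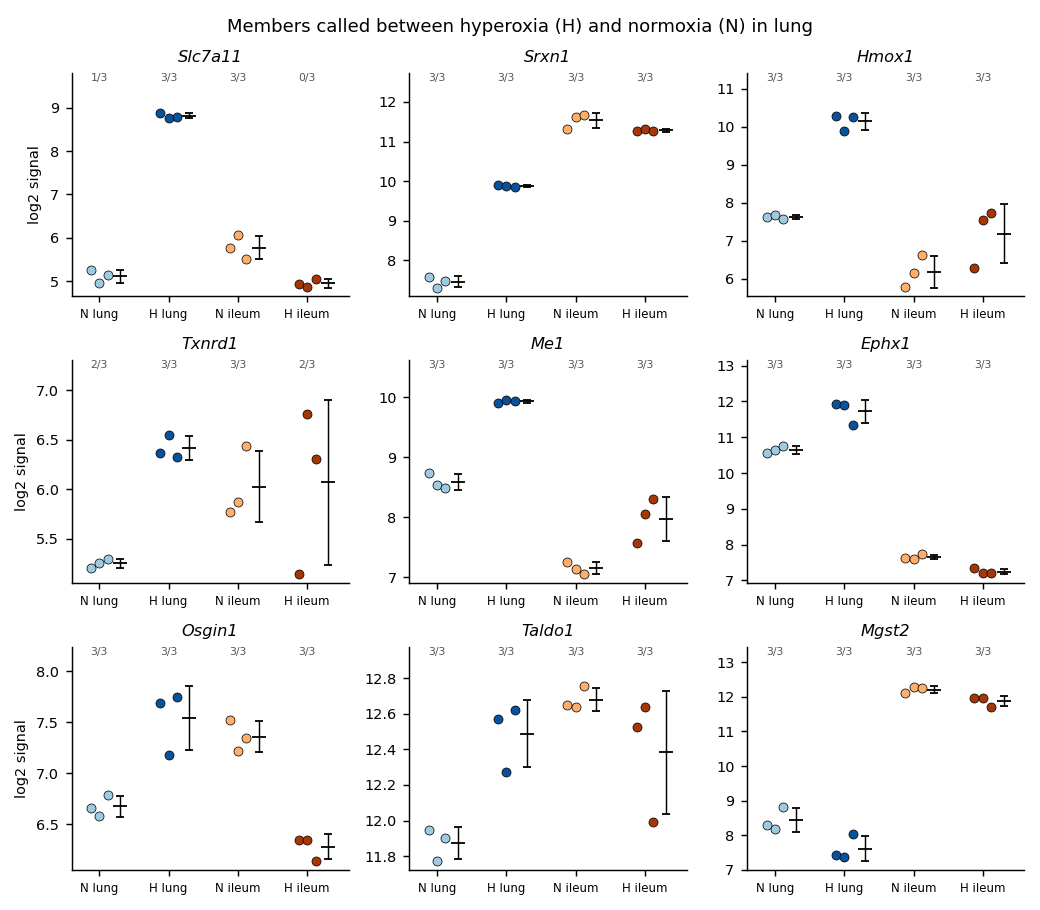
Log2 signal of the 9 members called in the lung (vertical axes, a separate scale for each gene), 1 point per array in the 4 groups (N normoxia, H hyperoxia), with the mean and SD of 3 arrays as a bar beside the points and the number of arrays with the probe detected above. Slc7a11 sits between 8.77 and 8.89 on the hyperoxia lung arrays and at 6.05 or below on every other array.

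Of 13 glutathione S-transferases tested in the lung, 1 was called (7.69%, beside 20.3% of all genes). Mgst2, a microsomal transferase that also makes leukotriene C4, read 8.30, 8.18 and 8.83 and fell to 7.44, 7.37 and 8.03. The groups did not overlap (difference -0.83, SE 0.21, adjusted p = 0.0124), and the call was lost without normoxia lung replicate 3 or hyperoxia lung replicate 1 or 2 (adjusted p = 0.0541 to 0.0652). Lung endothelium markers fell as well, 7 of 8, with a mean level of 11.0 to 11.1 under normoxia and 9.69 to 10.1 under hyperoxia, and their part in the Mgst2 result was not tested. The other 12 ranged from a difference of -0.66 for Gstm1 (adjusted p = 0.0925) to 0.54 for Gstp1 (adjusted p = 0.207).

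In the ileum the glutathione S-transferases Gsta3, Gsta2, Mgst1 and, on 1 of its 3 probes, Gsta1 were higher under hyperoxia, and Gstp1 and Gstm1 were lower. Of 35 members tested, 11 were called (31.4%), 7 higher and 4 lower, against 26.2% of all 11167 genes tested (12.3% higher and 13.9% lower). The median difference was -0.09 for the members and -0.03 for all genes. At 2-fold or more, 6 members were called beside 8.3% of all genes, and groups did not overlap for 16 of 35 members beside 40% of all genes. The count fell to 7 without normoxia ileum replicate 2 or replicate 3, beside 16.9% and 12.5% of all genes. It ranged up to 13 without hyperoxia ileum replicate 1, beside 31.9%. When the ratio of signal to background on an array entered the fit as a covariate, 2 members were called, Gsta3 (difference 2.32, adjusted p = 0.0262) and Osgin1 (difference -1.41, adjusted p = 0.021), and 3.5% of all genes. The other 9 lost their calls, Hmox1 at a difference of 0.33 and the rest at Gstp1 -1.74, Gsta2 1.19, Gsta1 1.15, Mgst1 1.04, Gstm1 -0.90, Slc7a11 -0.81, Me1 0.69 and Gclm 0.57. Because that signal did not overlap between the ileum groups, its part and that of the exposure cannot be told apart.

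Gsta3, which conjugates glutathione to electrophiles and whose upstream window is printed above, rose most. It read 9.11, 8.83 and 9.16 on the normoxia ileum arrays and 10.53, 10.99 and 11.18 on the hyperoxia ileum arrays, a rise of 1.87 (SE 0.29, 3.65-fold, adjusted p = 0.00099). A second Gsta3 probe, detected on 3 of 6 ileum arrays, differed by 0.52 (adjusted p = 0.179). Gsta2 read 8.65, 8.07 and 7.90 and then 8.82, 9.96 and 9.69. The lowest hyperoxia array of Gsta2 stood just above the highest normoxia array, and the rise of 1.29 (SE 0.34, adjusted p = 0.0151) lost its call without normoxia ileum replicate 2 or 3 or hyperoxia ileum replicate 2 or 3 (adjusted p = 0.0508 to 0.0708).

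The 3 probes of Gsta1 disagreed. The chosen probe, which had the highest mean over all 12 arrays, read 8.53, 8.17 and 7.83 and then 8.99, 10.34 and 9.43 (rise 1.40, SE 0.31, adjusted p = 0.00657). The other 2 averaged 8.74 and 8.63 in normoxia ileum and 8.67 and 8.64 in hyperoxia ileum, with differences of -0.071 (adjusted p = 0.898) and 0.003 (adjusted p = 0.995). The Gsta1 and Gsta2 sequences are closely alike, the chosen probe's values lay near those of Gsta2, and the direction of Gsta1 in the ileum therefore rests on the probe. The probe sequences were not analysed here.

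Mgst1, an abundant microsomal transferase, rose more modestly, from 12.73, 12.64 and 12.64 to 13.37, 13.51 and 13.21 (rise 0.70, SE 0.21, adjusted p = 0.0264). Its call was lost without normoxia ileum replicate 2 or 3 or hyperoxia ileum replicate 2 (adjusted p = 0.0712 to 0.0818), and its second probe differed by 0.63 (adjusted p = 0.055). Enterocytes are a main site of alpha class transferases, and 4 of 8 enterocyte markers tested fell in the ileum, none rising, with a mean level of 12.4 to 12.6 under normoxia and 11.4 to 11.7 under hyperoxia. Their part in the transferase results was not tested.

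Gstp1, the pi class transferase, went the other way. It read 11.50, 11.65 and 11.76 on the normoxia ileum arrays and 10.60, 10.42 and 9.26 on the hyperoxia ileum arrays, a fall of 1.54 (SE 0.28, 2.92-fold, adjusted p = 0.0025). All hyperoxia arrays were lower, replicate 3 most, and a second Gstp1 probe also fell by 1.54. Gstm1, of the mu class, read 8.26, 7.97 and 8.56 and then 7.67, 7.72 and 6.66 (difference -0.91, SE 0.26, adjusted p = 0.0221). Without hyperoxia ileum replicate 3 the Gstm1 difference was -0.57 (adjusted p = 0.0649), and without normoxia ileum replicate 3 it was -0.76 (adjusted p = 0.0989). Paneth cell markers fell in the same arrays, 4 of 5, from a mean level of 12.0 to 12.2 down to 10.4 to 11.2, and goblet cell markers fell for 3 of 6 and rose for 1. Their part in the Gstp1 and Gstm1 results was not tested.

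The other 7 transferases tested in the ileum did not pass. They ranged from -0.60 for Gsto1 (adjusted p = 0.281) to 0.31 for Gstt1 (adjusted p = 0.319), with Mgst3 at -0.48, Mgst2 at -0.32, Gstm2 at -0.32, Gsta4 at -0.28 and Gstm5 at 0.19. Hpgds, a sigma class transferase that makes prostaglandin D2 and no member of the set, rose by 1.51 (SE 0.25, adjusted p = 0.00153). It was the only one called of 11 further transferases tested there (9.09%, beside 26.2% of all genes). In the lung 0 of 12 further transferases were called by limma, beside 20.3% of all genes. At an unadjusted p under 0.05 there were 2, of which 1 was higher and 1 lower.

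**Figure D2:**
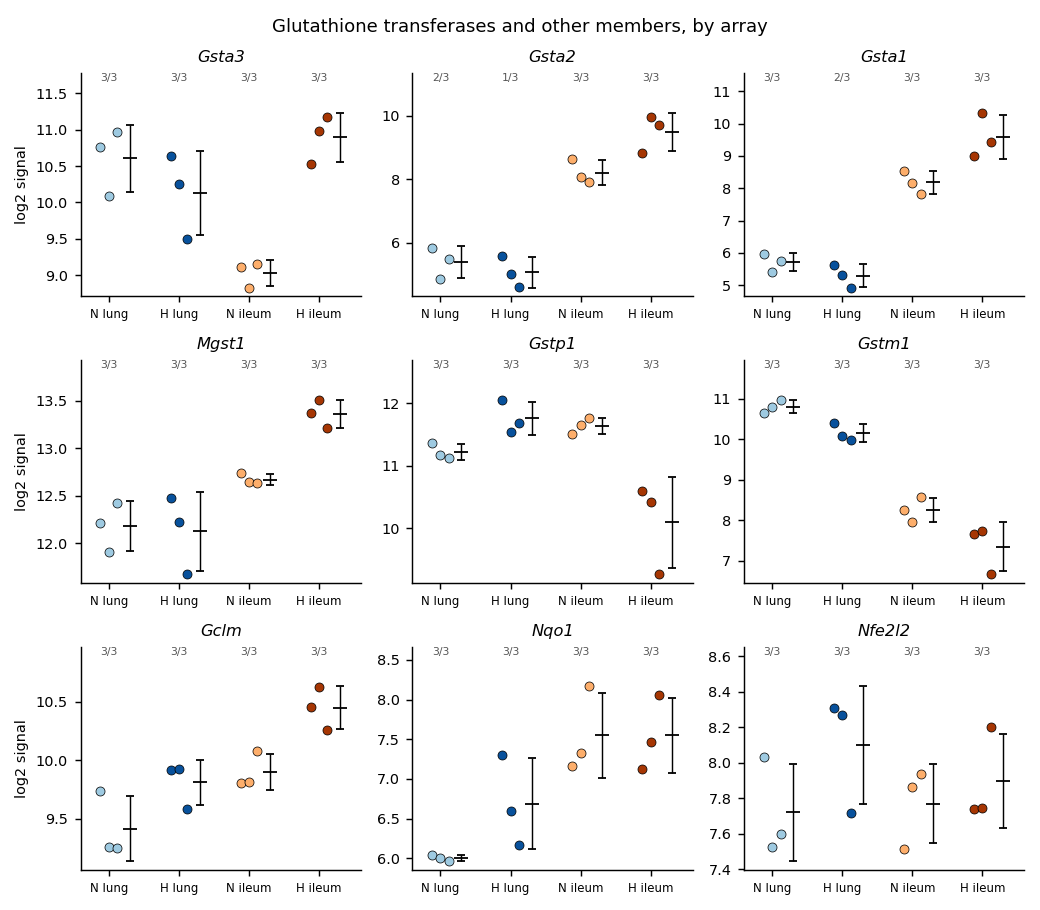
Log2 signal of 6 glutathione S-transferases and of Gclm, Nqo1 and Nfe2l2 (vertical axes, a separate scale for each gene), 1 point per array in the 4 groups (N normoxia, H hyperoxia), with the mean and SD of 3 arrays beside the points and the number of arrays with the probe detected above. Gsta3 rises from 8.83 to 9.16 on the normoxia ileum arrays to 10.53 to 11.18 on the hyperoxia ileum arrays, while Gstp1 goes from 11.50 to 11.76 down to 9.26 to 10.60.

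Outside the transferases, 5 members were called in the ileum, to be read beside the 26.2% of all genes called there. They were 2 of 3 tested in glutathione synthesis and cystine uptake, 1 of 3 in NADPH supply and 2 of 7 in haem, quinone and carbonyl handling. Gclm rose by 0.55 (SE 0.18, adjusted p = 0.0424), from 9.80, 9.82 and 10.08 to 10.45, 10.63 and 10.26, a call that 9 of the 12 arrays could end when left out (adjusted p = 0.0503 to 0.119). Me1 rose by 0.83 (SE 0.18, adjusted p = 0.00666), from 7.25, 7.13 and 7.05 to 7.57, 8.04 and 8.30. Hmox1 read 5.79, 6.14 and 6.63 under normoxia and 6.29, 7.55 and 7.72 under hyperoxia. The Hmox1 groups overlapped, and its rise of 1.00 (SE 0.32, adjusted p = 0.033) was lost without normoxia ileum replicate 1 or 2 or hyperoxia ileum replicate 2 or 3 (adjusted p = 0.0835 to 0.13). With the covariate of signal to background the Hmox1 difference was 0.33 (adjusted p = 0.706). Macrophage and monocyte markers averaged 7.69 to 8.00 on the normoxia ileum arrays and 7.54 to 7.95 on the hyperoxia ileum arrays, with 1 of 8 rising and 1 falling.

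Osgin1 and, on its chosen probe, Slc7a11 fell in the ileum. Osgin1 went from 7.52, 7.22 and 7.34 to 6.35, 6.35 and 6.14 (difference -1.08, SE 0.18, adjusted p = 0.00134). Slc7a11 read 5.76, 6.05 and 5.51 on the normoxia ileum arrays, all detected, and 4.93, 4.86 and 5.06 on the hyperoxia ileum arrays, none detected. The hyperoxia level is therefore only a bound, and Slc7a11 was at least 1.45-fold lower on this probe (adjusted p = 0.0043). The probe met the detection filter only through the normoxia arrays, where it was high. That p-value therefore follows from a gene admitted by the same difference and is no separate support for the fall. The second Slc7a11 probe, detected on 4 of 6 ileum arrays, differed by -0.16 and was not called (adjusted p = 0.556). The bound sets the hyperoxia level of each array at the lowest signal among its detected probes, or at the probe's own signal where that was higher.

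Of the thioredoxin, peroxiredoxin and glutaredoxin members, none of 7 passed limma's test in the ileum, beside 26.2% of all genes. At an unadjusted p under 0.05 there were 3. Srxn1 read 11.32, 11.62 and 11.67 and then 11.27, 11.33 and 11.26, so its groups overlapped (difference -0.26, SE 0.15, adjusted p = 0.22). Txnrd1 read 5.77, 5.87 and 6.43 and then 5.14, 6.76 and 6.31, the widest hyperoxia spread of the group (adjusted p = 0.929). Prdx2 differed by -0.63 (adjusted p = 0.0517), Txn1 by -0.36, Prdx1 and Prdx3 by 0.39 each and Glrx by 0.19. Red cell markers, of which 3 were measured, averaged 9.61 to 10.2 under normoxia and 10.2 to 11.5 under hyperoxia in the ileum, and their part in the Prdx2 value was not tested.

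The regulators and the quinone reductase gave no call in the ileum either, adjusted or not. Nfe2l2 read 7.52, 7.86 and 7.94 and then 7.74, 7.75 and 8.20 (difference 0.13, SE 0.22, adjusted p = 0.691), and Keap1 differed by -0.24 (adjusted p = 0.391). Nqo1 read 7.17, 7.32 and 8.16 and then 7.13, 7.46 and 8.06 (adjusted p = 0.999). Gclc was detected on 1 of 3 arrays in each ileum group and was not tested there. Gss differed by 0.28 on the chosen probe (adjusted p = 0.318) and by 1.31 on its dimmest probe (adjusted p = 0.00141).

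Whether the exposure difference itself differed between the organs was tested as the ileum difference minus the lung difference. Of 35 members tested, 11 were called (31.4%), 3 higher and 8 lower in the ileum relative to the lung, beside 26.5% of all 10207 genes tested (12.7% higher and 13.8% lower). At 2-fold or more, 9 members were called beside 18.4% of all genes. With the ratio of signal to background as a covariate, 8 members were called, 7 of them among the 11, beside 9.39% of all genes. Slc7a11, which rose in the lung and, on its chosen probe, fell in the ileum, had the largest at -4.53 (SE 0.23, adjusted p = 1.43e-07). With the ileum fall set at its bound, the Slc7a11 value was -4.24. Its probe was detected on 0 of 3 hyperoxia ileum arrays and 1 of 3 normoxia lung arrays, so the size of that difference is not exact. In the ileum the Slc7a11 probe was tested only because the normoxia arrays were detected. Srxn1 followed with -2.68 (SE 0.21, adjusted p = 5.76e-06). Osgin1 also moved in opposite directions and was called in each organ (-1.94, SE 0.25, adjusted p = 0.000231).

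Gstp1, Hmox1, Ephx1, Taldo1 and Txn1 were also lower in the ileum relative to the lung, by -2.08, -1.51, -1.49, -0.91 and -0.86. The calls of Txn1 (adjusted p = 0.0416), Hmox1 (adjusted p = 0.0244) and Taldo1 (adjusted p = 0.0204) were lost without 9, 3 and 1 of the 12 arrays in turn, the last being normoxia lung replicate 2 (adjusted p = 0.0515). Gsta3, Gsta1 and Gsta2 were higher in the ileum relative to the lung, by 2.35, 1.82 and 1.60, and Gsta2 lost its call without any 1 of 6 arrays (adjusted p = 0.0512 to 0.0682). Me1, called higher in both organs, did not pass this test (-0.52, SE 0.26, adjusted p = 0.15), nor did Txnrd1 (-1.12, SE 0.45, adjusted p = 0.0763) or Nqo1 (-0.69, SE 0.45, adjusted p = 0.264).

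**Figure D3:**
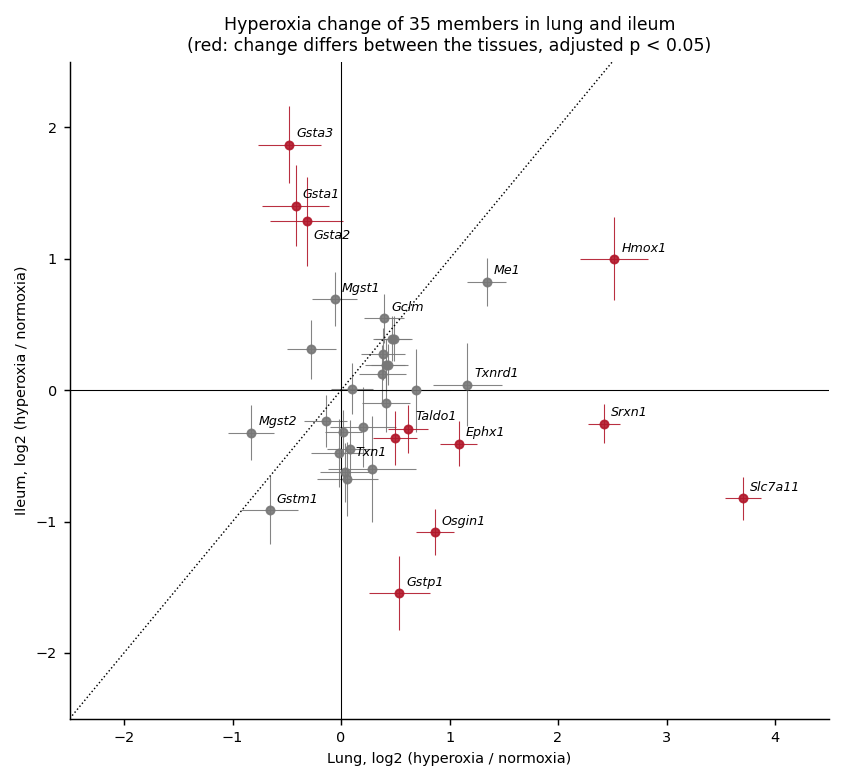
Log2 ratio of hyperoxia over normoxia in the lung (horizontal axis) and in the ileum (vertical axis) for the 35 members tested in both organs, 1 point per gene with the standard error in each direction, and equal change on the dotted line. Genes in red are the 11 whose difference itself differed between the organs, with Gsta3 at -0.48 and 1.87. Slc7a11 is drawn at its fitted 3.70 and -0.82, though it was not detected on the hyperoxia ileum arrays and its fall is known only as at least 1.45-fold.

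The starting levels of the members in the 2 organs were far apart. In normoxia pups, 27 of 36 members differed between lung and ileum (75%), 10 higher and 17 lower in the lung, beside 55.5% of all 12153 genes (29.4% higher and 26.1% lower). At 2-fold or more 18 members were called beside 32.6% of all genes, and 31 of 36 had groups that did not overlap beside 68% of all genes. Srxn1 differed most, at 7.31 to 7.59 in the lung and 11.32 to 11.67 in the ileum (difference -4.08, SE 0.15, adjusted p = 2.39e-11). Even after its rise, the hyperoxia lung arrays (9.85 to 9.91) stayed below every ileum array. Slc7a11 was also lower in normoxia lung than in normoxia ileum (difference -0.66, SE 0.17, adjusted p = 0.0038).

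The transferases were not all higher in one organ. Gstm1, Gstt1, Gsta4, Gstm2 and Gsta3 were higher in normoxia lung by 2.55, 2.31, 2.06, 1.87 and 1.58. Mgst2, Gsta2, Gsta1, Mgst3 and Gstm5 were lower there by -3.77, -2.81, -2.47, -1.71 and -0.52, and Gstp1, Gsto1 and Mgst1 did not pass. Gsta3 in the ileum reached 10.53 to 11.18 under hyperoxia and so overlapped the normoxia lung arrays (10.09 to 10.97), whereas Gsta2 stayed at 4.62 to 5.85 on the lung arrays and was detected on 3 of those 6.

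Of the remaining roles, Ephx1 (2.99), Cbr3 (2.03), Me1 (1.44), Hmox1 (1.43) and Prdx2 (0.57) were higher in normoxia lung. The genes lower there included Gss (-2.76), Glrx (-2.40), Nqo1 (-1.55), Txn1 (-1.38), Cbr1 (-0.92), Prdx3 (-0.90) and Taldo1 (-0.80). Nfe2l2 did not differ between the organs beyond its spread (difference -0.05, SE 0.22, adjusted p = 0.866), nor did Keap1 (0.23, SE 0.20, adjusted p = 0.343). The calls of Prdx2 (adjusted p = 0.0431), Gclm (adjusted p = 0.0369), Gstm5 (adjusted p = 0.037) and Tkt (adjusted p = 0.0158) were lost without any 1 of 8, 5, 5 and 3 arrays.

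**Figure D4:**
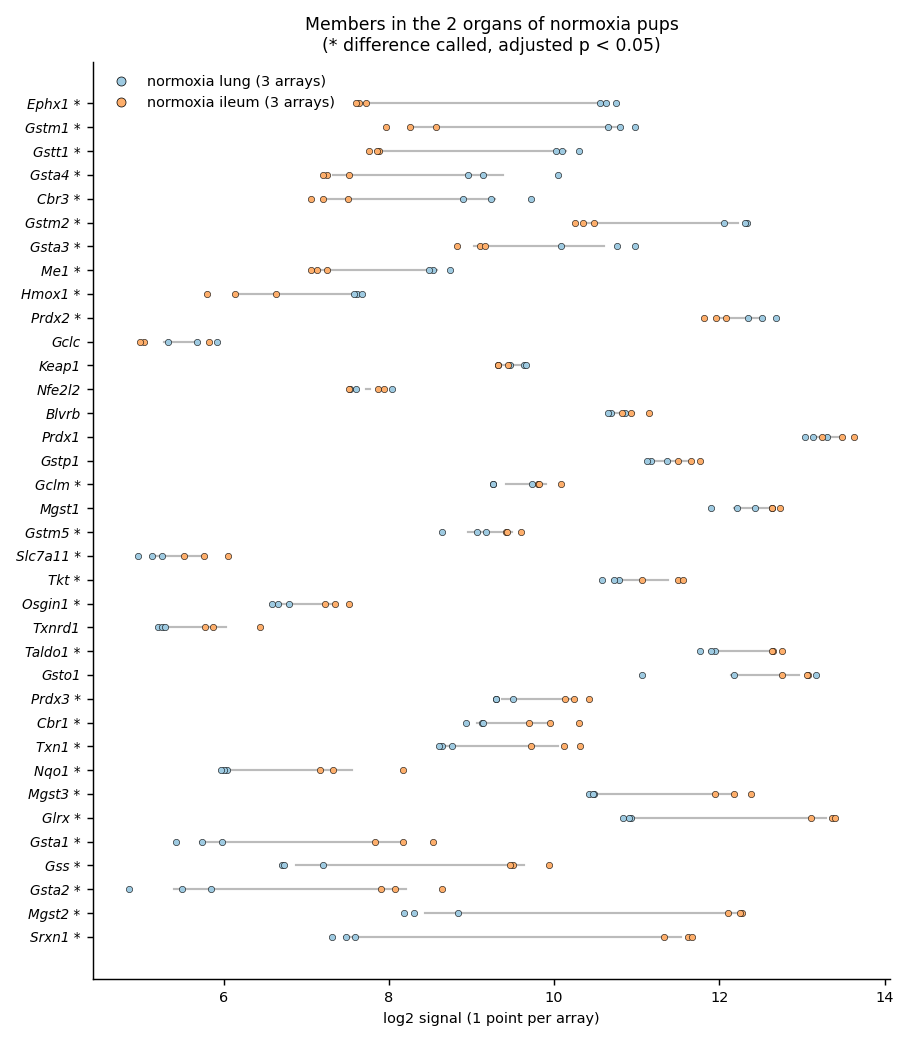
Log2 signal (horizontal axis) of the 36 measured members in normoxia lung and normoxia ileum, 1 point per array with a line joining the group means, ordered by the difference. Ephx1 is at the top, 2.99 higher in the lung, and Srxn1 at the bottom, 4.08 lower there, and an asterisk marks the 27 called.

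Genes around the members were described from 6 further lists, to be read beside the 20.3% of all genes called in the lung and 26.2% in the ileum. The alternative fits were followed gene by gene for the members only. The ileum calls of these lists were therefore not checked with the covariate of signal to background, under which 3.5% of all genes were called. Among 10 partners, repressors and degradation factors of NRF2, Maff (1.40, SE 0.23) and Sqstm1 (0.71, SE 0.17) rose in the lung. Maff lay near background in normoxia lung, with a mean of 5.22 and 2 of 3 arrays detected. In the ileum Mafg rose (1.19, SE 0.18) and Sqstm1 (-0.68, SE 0.17) and Dpp3 (-0.50, SE 0.14) fell. Maff and Mafg are small MAF proteins, and Sqstm1 encodes p62, which draws KEAP1 into autophagy. Sqstm1 thus moved in opposite directions, from 11.63, 11.15 and 11.28 to 12.10, 12.08 and 12.01 in the lung and from 11.02, 11.14 and 11.14 to 10.51, 10.61 and 10.16 in the ileum.

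Of 15 other NRF2 target genes tested in the lung, 3 rose and 2 fell (33.3%, beside 20.3% of all genes). Akr1b8, an aldo-keto reductase, went from 7.45, 7.29 and 7.57 to 9.93, 9.94 and 9.54 (rise 2.37, SE 0.24, adjusted p = 1.49e-05), and Ftl1, ferritin light chain, rose by 0.85 (SE 0.19, adjusted p = 0.00641). Esd, S-formylglutathione hydrolase, rose in both organs, by 1.27 in the lung and 0.79 in the ileum. Txnip, which binds and inhibits thioredoxin, fell in the lung from 13.47, 13.53 and 13.52 to 12.07, 11.66 and 12.36 (difference -1.48, SE 0.20, adjusted p = 0.000155), and the glycine transporter Slc6a9 fell by 1.11. Of 14 tested in the ileum, the exporter Abcc2 rose by 1.18 together with Esd, and Ugt1a6a and Abcc3 fell by 0.95 and 0.74 (28.6% called, beside 26.2% of all genes).

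In glutathione turnover, Dpep1, a membrane dipeptidase that splits cysteinylglycine, fell in both organs, by 2.95 in the lung (SE 0.34, adjusted p = 3.65e-05) and by 2.58 in the ileum (SE 0.34, adjusted p = 0.000259). It read 10.19, 9.91 and 9.93 and then 7.25, 7.80 and 6.13 on the lung arrays. Ggct, gamma-glutamylcyclotransferase, rose by 0.83 in the lung and fell by 1.02 in the ileum, where Chac1, which breaks down glutathione, fell by 0.91. Counting Esd, which stands in this list too, 5 of 10 genes of this list were called in the lung (3 higher and 2 lower) and 6 of 12 in the ileum (2 higher and 4 lower), beside 20.3% and 26.2% of all genes.

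Of 13 further thioredoxin, glutaredoxin and methionine sulfoxide reductase genes, 5 were called in the lung (38.5%, beside 20.3% of all genes) and 3 in the ileum (23.1%, beside 26.2%). Glrx3 rose in both (1.22 and 0.73), Sesn2 and Txnrd2 rose in the lung by 1.06 and 0.58, and Sesn1 and Txnrd3 fell there by 1.25 and 1.11. Glrx5 and Txn2, both of mitochondria, fell in the ileum by 1.09 and 0.60. Of 9 further genes of the pentose phosphate pathway and NADPH supply, none was called by limma in the lung (1 at an unadjusted p under 0.05). In the ileum Rpe (1.17) and Nnt (0.92) rose and Me2 (-0.92) fell. The Nnt value is that of 1 of its 8 probes. These are RNA levels, and neither the proteins nor NADPH was measured.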

How the data were processed

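Per the labels, RNA was extracted with an RNeasy kit and DNase, biotin-labelled and hybridised to the arrays. The labels name the right lung, the methods the left lower lobe. Per the submitters' processing notes, the authors used GenomeStudio 2011.1. The deposited values used here are intensities, the mean bead signal of each of 45281 probes with no background subtraction, each with a deposited detection p-value against the negative control probes. The authors' own normalized intensities, background-subtracted and quantile-normalized on a linear scale by a method not given in the sources used here, served as an alternative. No column of other samples was used.

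Intensities were corrected with limma 3.58.1 (R 4.3.3, neqc, offset 16, negative controls inferred from the detection p-values), quantile-normalized and log2-transformed. Genes were named from the platform annotation, in which 34885 probes carry 1 symbol, 18 several and 10378 none. The main fit had a mean for each of 4 groups over 12 arrays (lmFit, eBayes), with Benjamini-Hochberg adjustment within each contrast, and was tested on simulated data. The methods' two-way ANOVA was represented by an ordinary linear model among the alternatives. With 3 arrays against 3, an exact permutation test cannot go below 0.1. The number of arrays limits the precision.

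The members, lists, rules and tests were chosen with earlier results of these data known. Every member could be named, and of each further list up to 4 genes by the size of limma's statistic in each comparison. Other probes of a gene were added after seeing the data and adjusted over all named probes. Figures were drawn with matplotlib.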

Additional observations from a re-analysis of the deposited data

Results flagged for a closer look

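For 11 members the difference between hyperoxia and normoxia was not the same in the 2 organs, by limma's test of the ileum difference minus the lung difference (adjusted p under 0.05). Lower in the ileum relative to the lung were Slc7a11 (-4.53), Srxn1 (-2.68), Gstp1 (-2.08), Osgin1 (-1.94), Hmox1 (-1.51), Ephx1 (-1.49), Taldo1 (-0.91) and Txn1 (-0.86). Higher in the ileum relative to the lung were Gsta3 (2.35), Gsta1 (1.82) and Gsta2 (1.60), and the Gsta1 value holds for the chosen probe only, since its other 2 probes were not tested in the lung. Slc7a11, on its chosen probe, and Osgin1 were called in both organs in opposite directions, and Hmox1 was called higher in both. The Slc7a11 probe passed the detection filter in the ileum through the normoxia arrays alone. Txn1 was called in neither organ alone. The Slc7a11 value is not exact, since its probe was detected on 0 of 3 hyperoxia ileum arrays and 1 of 3 normoxia lung arrays, and it is -4.24 with the ileum fall at its bound.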

How the results depend on the processing

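The alternatives gave 3432 values of single members, of which 3226 kept their side of the threshold, 117 lost and 89 gained a call, and none was called in the opposite direction. The share of all genes called is given in brackets beside each count of members. In the ileum (11 members called, 26.2%), an ordinary linear model called 6 (19.2%). There were 2 with signal over background as a covariate (3.5%) and 6 at 2-fold or more (8.3%). Fits of only the 6 ileum arrays gave 8 (13.2%) and array weights 14 (40.2%). Leaving out 1 array gave 7 to 13 there, with 7 without normoxia ileum replicate 2 (16.9%) or 3 (12.5%). The 13 came without hyperoxia ileum replicate 1 (31.9%). In the lung (9 called, 20.3%), fits of only the 6 lung arrays gave 15 (25.6%) and array weights 21 (35%). Probes detected on all 6 arrays gave 7 (19.9%), 75th percentile scaling 8 (20%) and a limit of 2-fold or more 6 (8.84%). Leaving out 1 array gave 7 to 16, the 16 without hyperoxia ileum replicate 3 (27.3%). All 9 of the lung calls were among those 15, 21 and 16. For the difference between organs (11 called, 26.5%), leaving out 1 array gave 8 to 11 (18.5% to 31.6%). For normoxia lung against normoxia ileum (27 called, 55.5%) it gave 23 to 28 (49.7% to 60.7%). With signal over background as a covariate, 8 were called for the difference between organs, 7 of them among the 11. All genes called there went from 2708 to 958 (9.39%). In place of 2929 genes called in the ileum, 391 were called with the covariate, 1475 with only the ileum arrays, 4485 with array weights, and 1891 and 1395 without normoxia ileum replicate 2 and 3. In place of 2277 in the lung, array weights called 3915. The causes were not tested. With other probes, chosen after seeing the data, Gsta1 in the ileum turned to -0.071 (adjusted p = 0.898) and the Gss difference between organs to 1.08 (adjusted p = 0.0211).

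Same-numbered arrays of different groups did not deviate together (correlations of -0.24 to 0.09), so the numbers were not taken as pairs. With the replicate block, 10 members were called in the ileum (22.3% of all genes) and 9 in the lung (18.6%). There were 10 for the difference between organs (22.6%) and 26 between normoxia lung and normoxia ileum (54%). The probe chosen within each organ could not be run for comparisons between organs. Probes near background, such as those of Slc7a11 and Txnrd1 in normoxia lung, have less certain differences.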
